A study of Homo sapiens with 18 samples.

Results

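The line-specific response to knockdown of DNAJC17 was measured in 12 of the 18 RNA-seq libraries of the series, as the change from sgCTL to sgDNAJC17 in Rh30 cells less the same change in ES8 cells. This difference is given on the log2 scale, so that a positive value means a response that was higher in Rh30 and a negative value a response that was higher in ES8. Of 57500 genes in the files, 18899 had enough counts to be tested, and 1798 of them (9.51%) were called at an adjusted p under 0.05 by the quasi-likelihood test of edgeR, with p-values adjusted over all genes (Benjamini-Hochberg). Of all genes, 965 (5.11%) were called with a higher response in Rh30 and 833 (4.41%) with a lower one. Of the 1798, 537 genes were set aside and 1261 (6.67% of the genes tested) were kept. A gene was set aside when it belonged to a list of 50 epithelial genes or when it stayed changed in Rh30 cells that carried a truncated DNAJC17. All 7 epithelial genes called also stayed changed, so the 537 genes are those of the second kind.

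ES8 is a Ewing sarcoma line and Rh30 an alveolar rhabdomyosarcoma line, and both carried dCas9-KRAB, a nuclease-dead Cas9 fused to a transcriptional repressor that an sgRNA leads to a gene start. In each line 3 libraries came from parental cells with the non-targeting guide sgCTL, 3 from parental cells with sgDNAJC17, a guide to the start of the endogenous gene, and 3 from cells that also expressed 3xFLAG-DNAJC17-dRRM (here ΔRRM, DNAJC17 without its RNA recognition motif) and received sgDNAJC17. All cells were transduced with lentivirus, kept in puromycin for 72 hours and lysed, and RNA was selected for poly-A tails. The sgCTL construct carried GFP and the sgDNAJC17 construct BFP as a reporter. The ΔRRM libraries had no part in the test of the difference and served to set genes aside and as values beside it.

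DNAJC17 is a J-domain protein, one of the co-chaperones that direct HSP70 to its clients, and it is associated with the spliceosome. Ewing sarcoma cells are driven by a fusion of EWSR1 with an ETS factor such as FLI1, and alveolar rhabdomyosarcoma cells by a fusion of PAX3 or PAX7 with FOXO1 that holds them in a muscle-like state without full differentiation.

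Line identity matched the labels for most markers. In CPM, the counts of a gene scaled to the size of the library, MYOD1, the master regulator of the muscle lineage, lay at 861 to 1029 in the Rh30 parental libraries but at 0.372 to 0.714 in ES8. NR0B1, a target of EWSR1-FLI1, lay at 49.4 to 68.4 in ES8 but at 0 to 0.0246 in Rh30. NKX2-2, STEAP1, LIPI, MYOG, DES and FGFR4 also separated the lines in the direction of their label, whereas CD99 overlapped, and PAX3 and MYCN were lower in Rh30, at 15.9 to 22.5 and 3.48 to 6.01 CPM, than in ES8. Of the markers of other cell types, 0 of 10 blood genes and 0 of 8 endothelial genes were called by edgeR (2 and 1 at an unadjusted p under 0.05), and 1 of 9 fibroblast genes, COL1A2.

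DNAJC17 itself (chr15:40765155-40807478, minus strand, GRCh38 as in the files) fell in both lines. In ES8 it stood at 11.2, 12.4 and 12.3 CPM with sgCTL and at 1.56, 1.96 and 1.56 with sgDNAJC17, and in Rh30 at 11.7, 11.9 and 10.8 against 2.52, 2.20 and 2.72. Every knockdown library was below every control library of its line. The log2 change was -2.87 ± 0.13 (SE) in ES8 and -2.19 ± 0.12 in Rh30, a difference of 0.68 ± 0.18 with an adjusted p of 0.0205 by edgeR. This difference lost its call without ES8 sgCTL C, ES8 sgDNAJC17 C, Rh30 sgCTL A or Rh30 sgDNAJC17 C (0.60 to 0.66). The fitted knockdown was deeper in ES8, so line and depth of knockdown cannot be told apart in the differences that follow. The ΔRRM libraries stood at 283 to 368 CPM, which counts the transgene as well, and exons of DNAJC17 overlap those of GCHFR and ZFYVE19 on the other strand, with reads that cannot be told apart where counting ignores strand. In bulk RNA, fewer cells in a state and less RNA per cell cannot be told apart either.

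Libraries held 35342393 to 48245989 counts. A library that stands apart touches all results that follow. Across protein-coding genes sorted into 5 equal groups by GC content, ES8 sgDNAJC17 A lay at a median of -0.32 on the log2 scale from the ES8 sgCTL mean in the group of lowest GC content and at 0.14 in that of highest, whereas replicates B and C of the same group ran from 0.04 and 0.06 down to -0.08. The Rh30 sgDNAJC17 libraries ran the same way as these, from 0.05, 0.07 and 0.15 down to -0.08, -0.14 and -0.26. Rh30 ΔRRM libraries ran furthest, from 0.20 to 0.33 down to -0.34 to -0.44. Results are therefore given with and without ES8 sgDNAJC17 A where they rest on it. Per the methods of the study, replicates were plated in triplicate, and whether each plate was transduced separately is not given in the sources used here, so that p-values measure the spread between these platings.

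**Figure D1:**
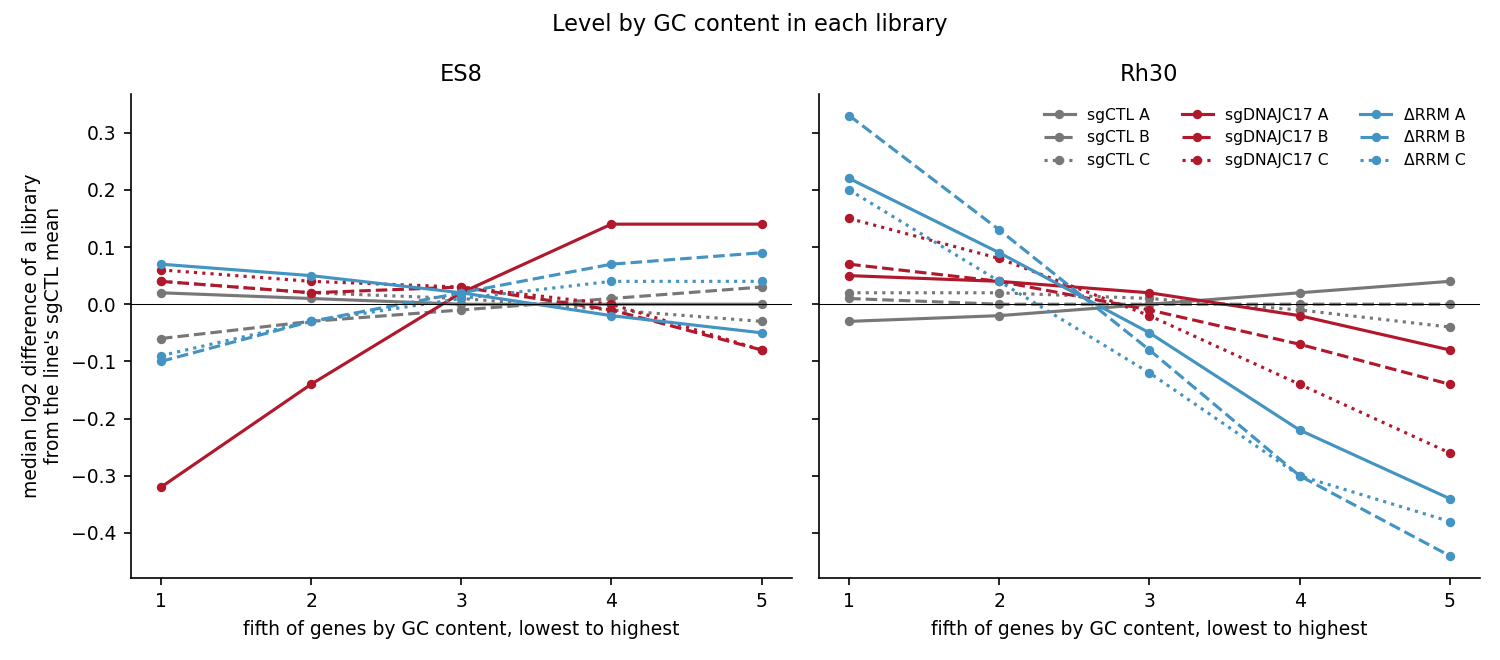
Median log2 difference of each library from the sgCTL mean of its line (vertical axis) over protein-coding genes with a mean count of at least 100, in 5 equal groups by GC content from lowest to highest (horizontal axis), for ES8 at left and Rh30 at right. Colour marks the group and line style the replicate, and ES8 sgDNAJC17 A rises from -0.32 to 0.14 while the other knockdown libraries fall.

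Knockdown alone called 5188 genes in ES8, 2188 up (11.6%) and 3000 down (15.9%), and 4218 in Rh30, 1983 up (10.5%) and 2235 down (11.8%). The higher count in ES8 moved with single libraries. Without ES8 sgDNAJC17 A it was 5963 against 5878 in Rh30, and without ES8 sgCTL C 3730 against 3767. Without Rh30 sgCTL A it was 4948 against 2430. Among the 1261 genes whose response differed, 718 were higher in Rh30 (3.80% of genes tested) and 543 lower (2.87%), with a median size of 0.54 and quartiles of 0.44 and 0.76. Of the kept genes, 199 differed by at least 1 on the log2 scale (1.28% of genes tested were called at this size, before any was set aside), and only 53 of those had a mean count of at least 30 in both lines. Of all 1798 calls 53.7% were higher in Rh30, a split that moved to 37.7% with library size as the only scaling, to 32.6% with all 18 libraries in 1 fit and to 29.4% without Rh30 sgCTL A. The number kept ranged from 676 without ES8 sgCTL C to 1526 without ES8 sgDNAJC17 A, and it was 723 without ES8 sgCTL A and 829 without Rh30 sgCTL A. Protein-coding genes made up 1167 of the kept genes (7.99% of those tested) and lncRNAs 57 (2.12%). The genes next to the threshold were RAB24, called at an adjusted p of 0.05 with a difference of -0.54, and NIPSNAP2, not called at 0.0501 with 0.42.

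The largest class of kept genes changed in ES8 and was not called in Rh30. It held 522 genes that fell in ES8 and 378 that rose there, 900 in all or 71.4% of the kept genes (64.9% without ES8 sgDNAJC17 A and 65.6% with a correction for GC content and length). The part of the deeper knockdown in ES8 in this share was not tested. In Rh30 97 genes fell and 87 rose without a call in ES8. Setting genes aside removed by construction genes that were called in Rh30, since without it 593 genes were called in Rh30 alone beside the same 900 in ES8 alone, 50.1% of 1798. Opposite calls were made for 58 kept genes, 43 down in ES8 and up in Rh30 and 15 the other way round. A further 47 were called in both lines with 1 sign, and 72 were called in neither line, though the difference between the lines was. An effect called in 1 line and not in the other is not of itself a difference, and all genes counted here passed the test of the difference.

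The ΔRRM libraries of ES8 stood near sgCTL for these classes. Genes that fell in ES8 alone had a median log2 change of -0.45 with sgDNAJC17 and -0.04 in ΔRRM cells, and genes that rose in ES8 alone had 0.50 and 0.05. In Rh30, genes that fell alone had -0.74 with sgDNAJC17 and -0.06 in ΔRRM cells, and genes that rose alone had 0.44 and -0.13. Knockdown and ΔRRM were set against the same sgCTL libraries, and in Rh30 the rule had already removed genes that stayed changed, so nothing is read from the Rh30 values, here or for the single genes below. For the classes changed in ES8 alone, the medians in Rh30 ΔRRM cells were 0.15 and -0.38, and the part of the GC trend of those libraries in these medians was not tested.

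**Figure D2:**
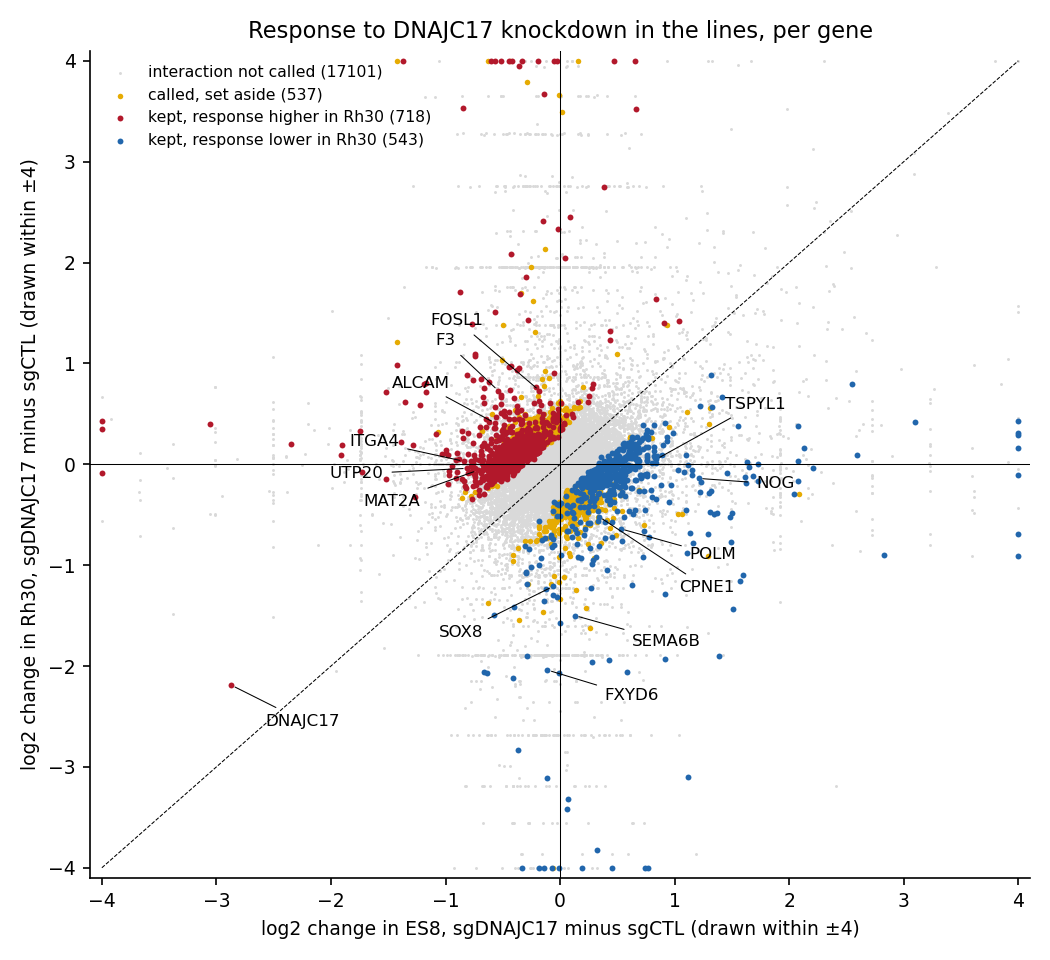
Log2 change with sgDNAJC17 in ES8 (horizontal axis) against Rh30 (vertical axis), 1 point per gene tested, with kept genes coloured by whether the response was higher or lower in Rh30 and genes set aside marked apart. Of the kept genes 718 lie above and 543 below the diagonal of equal response, and changes beyond 4 are drawn at the edge.

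Genes that moved in opposite directions included ALCAM, F3 and POLM. ALCAM (chr3:105366909-105576900, plus strand) encodes an adhesion molecule. It stood at 17.9, 17.8 and 17.8 CPM in ES8 sgCTL and at 10.4, 13.1 and 13.7 with sgDNAJC17, and in Rh30 at 52.4, 55.9 and 55.1 against 70.6, 69.6 and 75.1. The groups did not overlap in either line, with all knockdown libraries low in ES8 and high in Rh30. The difference was 0.98 ± 0.12 (adjusted p = 5.01e-05, edgeR), and ΔRRM cells stood at -0.05 in ES8 and -0.16 in Rh30 relative to sgCTL. F3, tissue factor, the cell surface trigger of coagulation, fell from 2.00, 1.68 and 1.77 CPM to 1.30, 1.48 and 1.12 in ES8 and rose from 47.2, 48.8 and 44.6 to 76.6, 75.8 and 78.0 in Rh30. No library crossed over, although ES8 held only a small part of the level of Rh30, and the difference was 1.27 ± 0.16 (adjusted p = 9.51e-05, edgeR). POLM, a DNA polymerase of end joining, moved the other way, from 13.2, 12.3 and 14.9 to 20.9, 19.3 and 20 CPM in ES8 and from 15.4, 13.4 and 12.9 to 10.0, 8.87 and 7.61 in Rh30, for a difference of -1.17 ± 0.15.

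CPNE1, a calcium-dependent membrane-binding protein, rose in ES8 by 0.34 and fell by 0.52 in Rh30, a difference of -0.85 ± 0.11 (adjusted p = 0.000134, edgeR). It was one of the most abundant of the leading genes, at 627 to 671 CPM in Rh30 sgCTL and 448 to 454 with sgDNAJC17, with 867 to 947 in the Rh30 ΔRRM libraries. It shares exons on the same strand with RBM12, whose own difference was 0.31 (adjusted p = 0.0331), so the split of reads between the 2 genes is uncertain. HOXC11, a homeobox factor, rose by 0.31 in ES8 and fell by 0.92 in Rh30, a difference of -1.23, but stood at only 0.893 to 1.01 CPM in Rh30 sgCTL. SYTL2, which acts in vesicle transport, rose by 0.97 in ES8 from 0.414 to 0.596 CPM with sgCTL and fell by 0.21 in Rh30, a difference of -1.18. Both kept their calls when any library was left out.

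Genes that fell in Rh30 without a call in ES8 were led by SEMA6B, FXYD6 and SOX8. SEMA6B, a transmembrane semaphorin that guides axons, fell from 46.4, 45.5 and 41.5 CPM to 17.3, 16.3 and 13.2 in Rh30, while ES8 stood at 60.1, 65.1 and 63.4 with sgCTL and at 83.3, 65.6 and 64.5 with sgDNAJC17. The Rh30 groups lay far apart, and in ES8 the groups overlapped, with replicate A of the knockdown above all others. Its difference of -1.63 ± 0.15 had the smallest adjusted p among the kept protein-coding genes with a mean count of at least 100 (1.41e-06, edgeR), and in Rh30 ΔRRM cells the gene was still at -0.50. SEMA6A, of the same class, fell from 9.53, 7.32 and 9.45 to 4.22, 2.72 and 3.40 CPM in Rh30 (-1.32) and stood at -0.03 in ES8. Both class 6 semaphorins named here thus fell in Rh30 with no call in ES8.

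SOX8, a transcription factor of the neural crest and of muscle satellite cells, fell from 55.6, 56.4 and 56.2 CPM to 25.1, 24.0 and 22.8 in Rh30 and stood at 18.8 to 19.6 against 17.4 to 21.4 in ES8. The Rh30 knockdown libraries were all below the controls, ΔRRM libraries lay at 40.4 to 45.1, and in ES8 the groups overlapped. The difference was -1.15 ± 0.12 (adjusted p = 7.47e-06, edgeR). FXYD6, a regulator of the sodium pump, fell in Rh30 from 3.89, 3.61 and 4.14 CPM to 1.25, 0.653 and 0.837 with 3.89 to 4.52 in ΔRRM cells, whereas ES8 lay at 52.1 to 59.0 in both groups. Its difference of -1.94 ± 0.19 rests on the low level in Rh30. KIAA1671 had -1.30 in Rh30, -0.06 in ES8 and a difference of -1.23 ± 0.13.

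FOSL1 and ARHGDIB rose in Rh30 without a call in ES8. FOSL1, a subunit of the AP-1 transcription factor, stood at 79.0, 79.7 and 73.3 CPM in Rh30 sgCTL, at 136, 128 and 116 with sgDNAJC17 and at 52.5 to 58.8 in ΔRRM cells. The knockdown libraries were all above the controls, and in the parental ES8 libraries the gene lay between 4.0 and 4.54. The difference was 0.91 ± 0.12 (adjusted p = 0.000161, edgeR). ARHGDIB, a regulator of small GTPases that is best known from blood cells, lay between 6.59 and 7.47 CPM in Rh30 sgCTL and between 10.7 and 10.9 with sgDNAJC17, and its change in ES8 was -0.18 with a difference of 0.81 ± 0.11.

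MAT2A, CTPS1, ITGA4 and BMAL2 fell in ES8 without a call in Rh30. MAT2A (chr2:85539165-85545280, plus strand) makes S-adenosylmethionine, the methyl donor of the cell, and its transcript is known to be regulated by splicing of its last intron. It stood at 304, 295 and 305 CPM in ES8 sgCTL and at 187, 193 and 189 with sgDNAJC17, against 335, 330 and 345 and then 316, 324 and 321 in Rh30. The ES8 groups lay far apart, and the Rh30 knockdown libraries lay just below the controls, for a difference of 0.66 ± 0.09 (adjusted p = 0.000161, edgeR). ES8 ΔRRM libraries were back at 284 to 298. CTPS1, which makes CTP, fell from 162, 155 and 158 to 99.9, 104 and 104 CPM in ES8 and had -0.06 in Rh30 (difference 0.61 ± 0.09). ITGA4, an integrin subunit that binds VCAM-1 and fibronectin, fell from 25.4, 21.4 and 23.0 to 12.8, 13.2 and 14.5 CPM in ES8 and lay at 33.9 to 37.8 in both Rh30 groups (difference 0.87 ± 0.12). BMAL2, a clock transcription factor, fell by 0.78 in ES8 with 0.03 in Rh30. Exons of MAT2A overlap GGCX on the other strand, which had a difference of 0.05.

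NOG and TSPYL1, both of a single exon block, rose in ES8 without a call in Rh30. NOG, the secreted antagonist of bone morphogenetic proteins, rose from 11, 9.86 and 9.99 CPM to 26.2, 22.6 and 24.7 in ES8 and stood at 14.8 to 17.5 against 14.1 to 15.2 in Rh30. The ES8 groups were far apart, with ΔRRM cells between them at 12.3 to 14.3, and the difference was -1.34 ± 0.13 (adjusted p = 3.51e-06, edgeR). TSPYL1, of the nucleosome assembly protein family, rose from 40.1, 38.5 and 40.1 to 73.0, 73.4 and 74.5 CPM in ES8, with 67.7 to 72.0 against 68.4 to 76.8 in Rh30, for a difference of -0.80 ± 0.10. Its relatives TSPYL4 and TSPYL2, chosen after their values were seen, had -0.84 and -0.83. SQOR, an enzyme of sulfide oxidation, had -1.97 but lay at only 0.0591 to 0.277 CPM in ES8 sgCTL, against 0.555 to 1.35 with sgDNAJC17. TSPYL1 overlaps DSE on the other strand, which was not called.

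Genes called up in both lines rose more in ES8 in 22 cases and more in Rh30 in 11. POFUT2, which adds fucose to thrombospondin repeats, stood at 37.2, 37.6 and 36.5 CPM in ES8 sgCTL and at 82.4, 75.1 and 71.9 with sgDNAJC17, and in Rh30 at 26.5, 25 and 25.3 against 32.6, 32 and 30, a difference of -0.68. ZNF212, a zinc finger factor, had 0.93 and 0.27, and MOK, a MAP kinase relative, 1.33 and 0.57. MOK lost its call in 4 of 12 leave-outs and overlaps WDR20 on the other strand.

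Each of ALCAM, F3, FOSL1, ARHGDIB, ITGA4, MAT2A, BMAL2, CTPS1, SEMA6B, FXYD6, NOG, SOX8, KIAA1671, TSPYL1, POLM and CPNE1 kept its call without any single library and in each other fit or filter tried, 21 alternatives for each gene, which do not include the requirement of a log2 difference of at least 1.

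**Figure D3:**
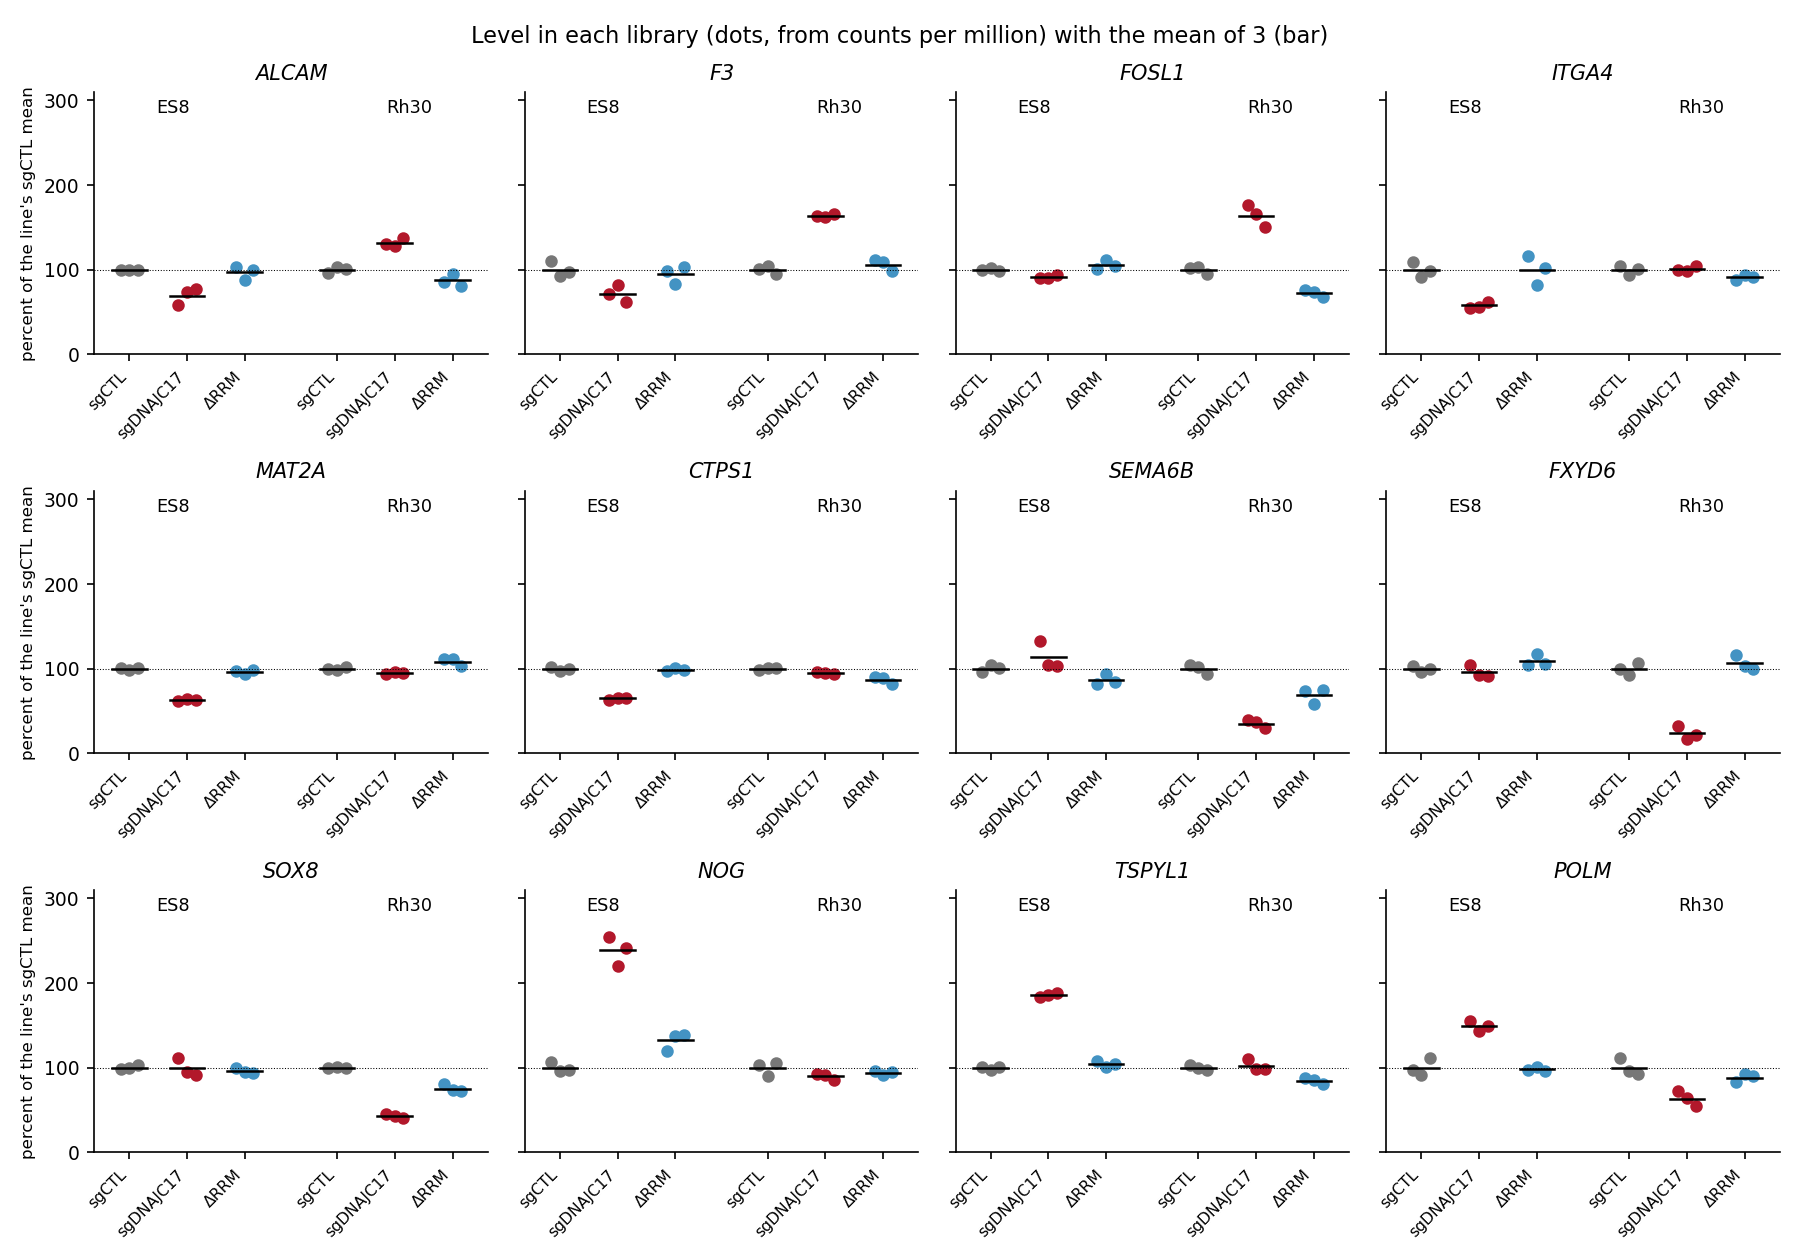
Level of 12 leading genes in each of 18 libraries, as a percent of the sgCTL mean of the same line (vertical axis, from CPM), for ES8 and Rh30 sgCTL (grey), sgDNAJC17 (red) and ΔRRM with sgDNAJC17 (blue), with a bar at each mean of 3. ALCAM and F3 lie below 100 in ES8 and above it in Rh30, and SEMA6B, FXYD6 and SOX8 fall in Rh30 alone.

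Members were counted in 32 gene lists. Of 33 genes of ribosome biogenesis tested, 14 were called, all with a response higher in Rh30, and 9 were kept (27.3%, against 3.80% of all genes and 6.05% of protein-coding genes with a mean count of at least 1000). Over all genes 5.11% were called with a higher response in Rh30. In ES8 12 of the 33 genes fell and 4 rose, with a median of -0.11 (15.9% and 11.6% of all genes). In Rh30 14 rose and 0 fell, with a median of 0.17 (10.5% and 11.8% of all genes). The median difference was 0.24, against 0.03 over all genes tested. UTP20, a component of the small subunit processome, fell from 126, 121 and 127 CPM to 61.3, 77.6 and 81.6 in ES8 and lay at 89.9 to 99.1 against 91.5 to 94.9 in Rh30. The ES8 groups did not overlap and the Rh30 groups did, and the difference of 0.78 ± 0.11 (adjusted p = 0.000366, edgeR) held without any single library.

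WDR75 (0.51) and WDR12 (0.47), which act in processing of the small and large subunit precursors, DDX21 (0.48), a nucleolar helicase, and GNL3 (0.48), the GTPase nucleostemin, were also kept. LYAR (0.46), RRP9 (0.40), UTP4 (0.32) and NOP56 (0.28) followed, all 4 named beyond the rule. UTP4 and NOP56 lost their call in 10 of 12 leave-outs, RRP9 in 7, and GNL3 and LYAR in 6 each. The count was 2 without Rh30 sgCTL A, 4 without ES8 sgCTL C, and 5 without ES8 sgCTL A, ES8 sgCTL B, ES8 sgDNAJC17 C, Rh30 sgCTL C or Rh30 sgDNAJC17 B. It was 5 with library size as the only scaling, and 7 higher and 1 lower without ES8 sgDNAJC17 A. With the correction for GC content and length it was 9, of which 7 were among the first 9. The median difference stayed between 0.19 and 0.30 over the leave-outs. GNL3, WDR12 and UTP4 overlap genes on the other strand.

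The 40 cytosolic ribosomal proteins tested, the products that this pathway assembles, held 0 calls of the difference by edgeR and 0 by DESeq2, with 1 at an unadjusted p under 0.05. Most rose in both lines, 33 in ES8 (median 0.33) and 30 in Rh30 (median 0.34), where 11.6% and 10.5% of all genes rose. The most abundant, RPS2 and RPLP0, had 0.19 and 0.34 in ES8 and 0.04 and 0.10 in Rh30, with differences of -0.15 and -0.25 that were not called.

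Promoters were searched for 7 short motifs on both strands, chosen after the values were seen. These were CACGTG of the E-box, TGACGTCA of the cyclic AMP response element, the E2F forms TTTGGCGC with its variants TTTCGCGC and also TTTCCCGC, the CCAAT box and the TATA box letters TATAAA, and none holds another. Shares are of genes with a promoter, and a gene counted where any of its promoters held the motif. The E-box letters CACGTG, which MYC and related factors are known to bind, stood in 6 of the 9 kept genes and in 14 of 29 genes (48.3%) of the list. Of tested protein-coding genes, 1440 of 11696 (12.3%) held them. Each promoter ran from 250 bases before to 50 bases after the start in RefSeq (GRCh38.p14). The 6 matches of kept genes are shown on the strand of the gene, with the motif in capitals, at chr10:68956605-68956632 (plus), chr3:52686027-52686054 (plus), chr4:4290069-4290096 (minus), chr3:51941893-51941920 (minus), chr12:101280084-101280111 (plus) and chr16:69132622-69132649 (plus) in this order.
DDX21: gccgggtgtccCACGTGgtccccggcga
GNL3: gcttcagttcaCACGTGgcgccagcgga
LYAR: ggcggcgagtcCACGTGctccccgcggc
RRP9: ggttcagctgcCACGTGagttctgcggc
UTP20: ttttttccgtcCACGTGacccactcagg
UTP4: gagcgcgcgcgCACGTGgggccggggcg
A match is a run of letters and not a measured site, and no binding was measured here. Of the other motifs, CCAAT stood in 41.4% of the list against 42.9% of all and the rest in at most 3.45% of it.

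Of 41 genes of DNA replication tested, 24 fell in ES8 (median -0.27) and 10 in Rh30 (median -0.09), where 15.9% and 11.8% of all genes fell. Of the 41, 6 were kept, all with a response higher in Rh30 (14.6%, against 3.80% of all genes). RFC4, of the clamp loader, fell from 36.5, 36.5 and 38.2 CPM to 25.9, 26.7 and 27.8 in ES8 and stood at 52.4, 54.5 and 56.7 against 50.1, 50.5 and 55.9 in Rh30. The ES8 groups were apart and the Rh30 groups overlapped, with a difference of 0.47 ± 0.10 (adjusted p = 0.00707, edgeR). POLE2 (0.58, outside the naming rule) and POLA1 (0.38), subunits of polymerases epsilon and alpha, CDC6 (0.34), which loads the helicase, and the ribonucleotide reductase subunits RRM1 (0.34) and RRM2 (0.34) were the others. The count moved with single libraries, to 0 without Rh30 sgCTL A, 1 without ES8 sgCTL A or Rh30 sgCTL B, 2 without ES8 sgCTL C, 3 without Rh30 sgDNAJC17 B or C, 10 without Rh30 sgDNAJC17 A and 12 without ES8 sgDNAJC17 A, while the median difference stayed between 0.07 and 0.20. Exons of RFC4 overlap EIF4A2 on the other strand.

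The letters TTTGGCGC, a form of the site known for E2F factors, or their reverse complement stood in the promoters of 3 of the 6 kept replication genes and in 8 of 35 (22.9%) of the list, against 152 of 11696 (1.30%). The windows are at chr17:40287875-40287902 (plus), chrX:24693770-24693797 (plus) and chr14:49688203-49688230 (minus), with the motif or its reverse complement in capitals.
CDC6: ggccattcggaTTTGGCGCgagcgcggc
POLA1: gtcatcacaggGCGCCAAAcgcgcgtcc
POLE2: ctgcggcggtgGCGCCAAAtcgcaaata
TTTCCCGC and TTTCGCGC, related forms, stood in 31.4% and 17.1% of the list, against 3.07% and 1.14% of all, and in 0 of the 6 kept genes.

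Mitotic genes gave no stable direction. Of 37 tested, TOP2A (0.48), the topoisomerase of mitotic chromosomes, ANLN (0.39), of the cleavage furrow, and BUB1B (0.31), of the spindle checkpoint, were kept with a response higher in Rh30. With library size alone or with all 18 libraries in 1 fit, 0 were kept higher and 2 lower, and 3 higher and 6 lower after correcting for GC content and length. It was 0 of each without ES8 sgCTL A, ES8 sgCTL C, Rh30 sgCTL B, Rh30 sgCTL C or Rh30 sgDNAJC17 C, and the median difference was 0.00. Of 32 replication-dependent histone genes, H2BC21 alone was kept (-0.69), up by 0.76 in ES8.

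**Figure D4:**
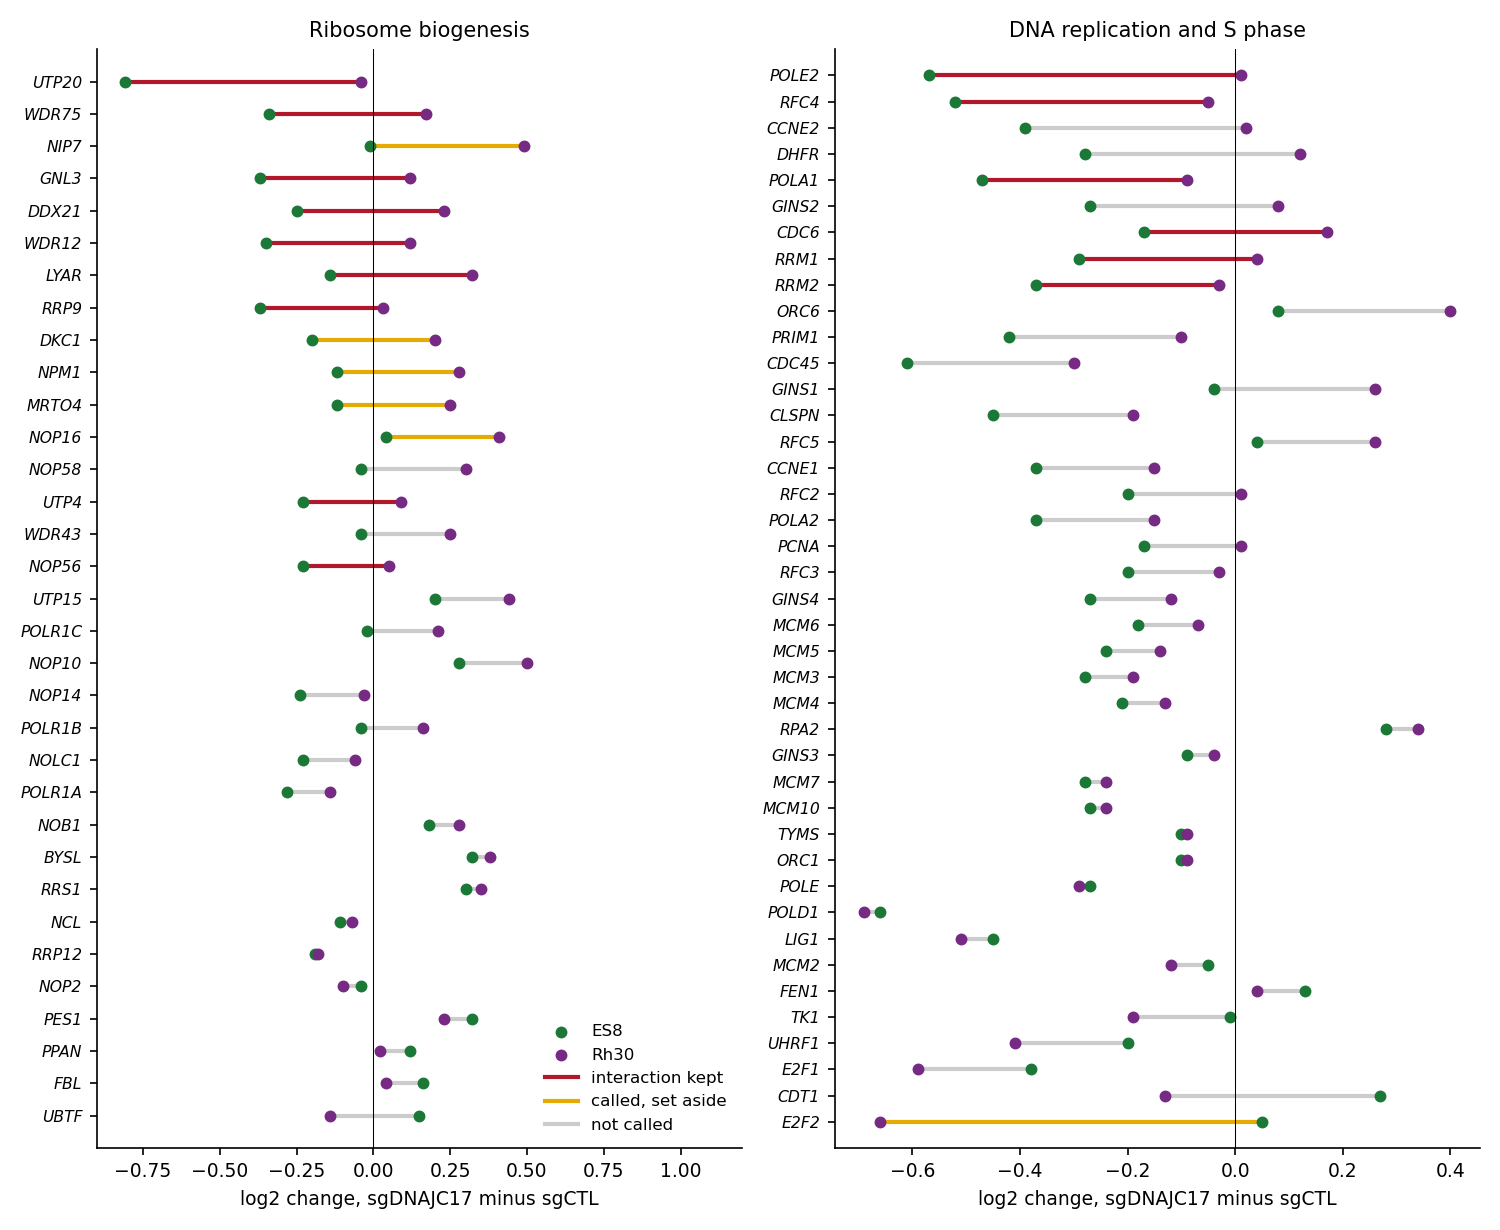
Log2 change with sgDNAJC17 (horizontal axis) in ES8 (green) and Rh30 (purple) for each tested gene of ribosome biogenesis (left, 33 genes) and DNA replication (right, 41 genes), ordered by the difference. Red lines mark kept calls, yellow lines called genes that were set aside and grey lines genes not called, and at left every called gene has its Rh30 point to the right.

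Genes of cholesterol synthesis had a median change of -0.32 in ES8 and -0.03 in Rh30. Of 25 tested, 16 fell and 0 rose in ES8 (15.9% of all genes fell), 4 fell and 3 rose in Rh30 (11.8% of all fell), and 5 were kept with a response higher in Rh30 (20%, against 3.80% of all genes). EBP, the sterol isomerase, stood at 63.4 to 63.6 CPM in ES8 sgCTL and at 53.9 to 63.6 with sgDNAJC17, and rose from 21.8, 24.7 and 24.9 to 30.6, 33.1 and 33.8 in Rh30. The Rh30 groups were apart and the ES8 groups touched, and the difference was 0.62 ± 0.12 (adjusted p = 0.00268, edgeR). STARD4 (0.69), a sterol carrier, FDPS (0.38), which makes farnesyl pyrophosphate, SQLE (0.32), the epoxidase of squalene, and TM7SF2 (1.06), a sterol reductase at 0.376 to 0.925 CPM in Rh30 that shares exons with VPS51, were the others. Without ES8 sgDNAJC17 A or Rh30 sgDNAJC17 A 8 were kept, without ES8 sgCTL C or Rh30 sgCTL C 3 and without Rh30 sgCTL A 2, and the median difference lay between 0.19 and 0.32.

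Of 23 genes of the integrated stress response, 11 rose in ES8 and 9 in Rh30 (11.6% and 10.5% of all genes did), and 7 were kept (30.4%, against 6.67% of all genes and 10.2% of protein-coding genes with a mean count of at least 1000), 3 higher and 4 lower in Rh30. PPP1R15A, the phosphatase subunit that ends the response, rose in both lines, from 47.7, 48.2 and 48.2 to 102, 98.6 and 105 CPM in ES8 and from 52.4, 52.3 and 47.8 to 142, 132 and 130 in Rh30. It rose more in Rh30, by 0.38 ± 0.10 (adjusted p = 0.0164, edgeR), and lost this call in 2 of 12 leave-outs. TXNIP, the thioredoxin inhibitor, rose in both and more in ES8 (-0.43), DDIT4, an inhibitor of mTORC1, fell by 0.42 in Rh30 with 0.21 in ES8 (-0.63), and KLHL24 rose in ES8 (-0.67). XPOT, the exporter of tRNA, had 0.42 and BBC3, also in the p53 list, -0.61. KLHL24 and BBC3 lost their calls in 8 and 9 of 12 leave-outs. Without Rh30 sgCTL A 0 were kept higher and 3 lower, without Rh30 sgCTL C 1 and 3, and without ES8 sgCTL A, ES8 sgDNAJC17 C or Rh30 sgDNAJC17 B 2 and 2.

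Related lists held 1 to 3 kept genes each. These were 13.6% of the genes tested of amino acid synthesis and transport, 4.17% of the unfolded protein response and 8.33% of p53 targets. The share was 6.67% over all genes and 10.2% over protein-coding genes with a mean count of at least 1000. SLC7A11, the cystine transporter, rose by 0.61 in Rh30 with -0.23 in ES8 (0.84), ALDH18A1 of proline synthesis had 0.33 and PCK2 -0.40, of 22 genes of amino acid synthesis and transport. ALDH18A1 and PCK2 lost their calls in 9 and 7 of 12 leave-outs. Without Rh30 sgCTL A 0 genes of this list were kept higher. HERPUD1, of endoplasmic reticulum degradation, rose by 0.62 in ES8 and had 0.06 in Rh30 (-0.56), the only one kept of 24 genes of the unfolded protein response. Of 24 p53 targets, BBC3 and TP53INP1 (-0.57) were kept, and they lost their calls in 9 and 6 of 12 leave-outs.

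Of 22 heat shock genes 7 were called (9.51% of all genes were) and 6 set aside. HSPA8, the constitutive HSP70 protein, fell from 2320, 2263 and 2324 CPM to 1889, 1920 and 1898 in ES8 and stood at 2045, 2345 and 2725 against 2723, 3125 and 3533 in Rh30. In ES8 the groups were apart and in Rh30 they overlapped, and in Rh30 ΔRRM cells the gene was higher still at 3719 to 4168. Its difference was 0.74 ± 0.14, and the mitochondrial chaperonins HSPE1 (0.69) and HSPD1 (0.49), whose exons overlap each other, went the same way. These 3 genes lie outside the naming rule and were set aside because Rh30 ΔRRM cells carried the same change. HSP90AB1 (0.33) was the gene kept, and it lost its call in 7 of 12 leave-outs.

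Of 24 targets of TGF-beta, BMP and YAP signalling, 8 were kept (33.3%, against 6.67% of all genes and 10.2% of protein-coding genes with a mean count of at least 1000), 4 higher and 4 lower in Rh30. Correcting for GC content and length, or leaving out ES8 sgDNAJC17 A, kept the same 8. F3, described above, and CCN1 (0.40), both known YAP targets, were among the 4 kept as higher and rose in Rh30.

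SMAD6 and BAMBI, which inhibit the pathway, were among the 4 kept as lower. The list held other kept genes in each direction that are not named with these, so the named genes do not stand for the list. SMAD6, an intracellular inhibitor, rose from 61.4, 62.8 and 61.3 to 102, 94.4 and 98.7 CPM in ES8 and stood at 2.73 to 3.45 against 2.15 to 3.26 in Rh30, where the groups overlapped, for a difference of -0.86 ± 0.16. BAMBI, a pseudoreceptor of the pathway, rose by 0.65 in ES8 with 0.06 in Rh30 (-0.59 ± 0.13). SMAD6 and BAMBI kept their calls in every leave-out. CCN1 lost its call in 7 of 12. Without ES8 sgCTL A, ES8 sgCTL C or Rh30 sgCTL C 2 higher and 3 lower were kept, and without Rh30 sgDNAJC17 B 2 and 2.

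Of 29 immediate early genes, 3 were kept higher and 3 lower (20.7% together, against 6.67% of all genes). The counts were 1 and 2 without ES8 sgCTL C, Rh30 sgCTL A, Rh30 sgCTL C or Rh30 sgDNAJC17 B, and 2 and 2 with library size alone. Beside FOSL1, CCN1 rose by 0.50 in Rh30. DUSP4, a phosphatase of MAP kinases, fell by 0.90 in Rh30 with 0.01 in ES8 (-0.91 ± 0.18), and it kept this call in each leave-out. JUND, an AP-1 subunit of 1 exon, rose by 0.31 in ES8 with -0.23 in Rh30 (-0.53), and NR4A1, an orphan nuclear receptor, by 0.30 with -0.41 (-0.71). NR4A1 lost its call in 5 of 12 leave-outs.

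Among 57 semaphorins, plexins, ephrins and netrins, 8 were kept (14%, against 6.67% of all genes and 10.2% of the abundant protein-coding genes above), 5 higher and 3 lower in Rh30, or 3 and 2 without ES8 sgCTL A. In ES8 19 of the 57 fell and in Rh30 16, where 15.9% and 11.8% of all genes fell. SEMA3D, a secreted semaphorin, fell from 20, 15.9 and 19.1 to 8.14, 11.7 and 12.8 CPM in ES8 and stood at 2.78 to 3.67 against 3.66 to 3.89 in Rh30, a difference of 1.11 ± 0.21. SEMA3A fell by 0.51 in ES8 with 0.15 in Rh30 (0.66), and EFNB2, a ligand of Eph receptors, had 0.48. Secreted class 3 members named here thus fell in ES8 and the transmembrane class 6 members in Rh30, which describes these 4 genes only.

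Lists of the actin cytoskeleton and of the matrix held 3 kept genes each, 12% and 10% of those tested, close to the 10.2% of abundant protein-coding genes. TPM1 (0.50), TPM4 (0.43) and VCL (0.37), which encode tropomyosins and vinculin, were kept of 25 actin and SRF genes. TIMP3 (0.51), an inhibitor of metalloproteinases, and COL1A2 (0.97), at 0.890 to 1.85 CPM in Rh30, were among those kept of 30 matrix genes. Of the 30, 19 fell in ES8 and 11 in Rh30, where 15.9% and 11.8% of all genes fell. All 6 genes kept in these 2 lists had a higher response in Rh30. However, 1 gene of each list was kept as lower with library size alone, with all 18 libraries in 1 fit or with the GC and length correction. Beside that gene, the correction kept 8 actin genes and 7 matrix genes as higher. Over all genes, those kept as higher went from 718 to 1101 with it. Without ES8 sgDNAJC17 A 5 of each list were kept higher. TPM1, TPM4 and TIMP3 kept their calls in each leave-out, and COL1A2 lost it in 1. The summed level of the fibroblast markers was 582 to 609 CPM in ES8 sgCTL against 465 to 539 with sgDNAJC17, and 410 to 428 against 366 to 410 in Rh30. Their part in the result was not tested.

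Lineage lists held few kept genes, 3.45% of the muscle genes tested, 8.33% of the PAX3-FOXO1 list and 9.68% of the EWSR1-FLI1 list. The neuroendocrine and synaptic list had 12.5%, against 6.67% of all genes and 10.2% of the abundant protein-coding genes above. Of 29 skeletal muscle genes, TNNI1, slow troponin I, was kept (0.46) and lost its call in 9 of 12 leave-outs. Of 24 partners and targets of PAX3-FOXO1, MET, the HGF receptor, fell by 0.74 in ES8 with -0.17 in Rh30 (0.57 ± 0.11), and SKP2 of the ubiquitin ligase SCF had 0.37. Of 31 of EWSR1-FLI1, CAV1 (0.47), VRK1 (0.56) and CCND1 (0.36) were kept. CCND1, cyclin D1, rose by 0.38 in Rh30 with 0.01 in ES8 and lost its call in 6 of 12 leave-outs. Of 32 neuroendocrine and synaptic genes, CNTN1 (0.76), an axonal adhesion molecule, NLGN1 (0.52) and SYT11 (-0.49) were kept beside a gene of low count. Of 25 Notch and Wnt genes, 4 had an unadjusted p under 0.05, 2 were called by edgeR and both were set aside.

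In the splicing machinery, with which DNAJC17 is associated, DDX23 and PRPF6, both of the U5 or tri-snRNP assembly, were kept of 31 genes (6.45%, against 6.67% of all genes), and 2 others, both higher in Rh30, were called and set aside. DDX23, a helicase, rose from 327, 329 and 333 to 517, 474 and 483 CPM in ES8 and stood at 172 to 177 against 161 to 175 in Rh30. The ES8 groups were far apart and the Rh30 groups overlapped, for a difference of -0.58 ± 0.09 (adjusted p = 0.000923, edgeR), and no leave-out ended the call. PRPF6 rose by 0.33 in ES8 with -0.13 in Rh30 (-0.46). Without ES8 sgCTL A, ES8 sgCTL C or Rh30 sgDNAJC17 C 1 gene was kept, and without ES8 sgDNAJC17 A 1 higher and 4 lower. With DESeq2 or all 18 libraries in 1 fit, 0 higher and 4 lower were kept. It was 0 and 2 with library size alone or the replicate block. The GC and length correction kept 1 higher and 7 lower, while genes kept overall went from 1261 to 2387. Of 33 SR proteins and hnRNPs, RBM39, a splicing factor, rose in both lines and more in Rh30 (0.48), and SRPK1, the kinase of SR proteins, fell by 0.56 in ES8 with -0.06 in Rh30 (0.50).

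The other lists gave few genes. Kept shares were 6.45% for interferon-stimulated genes, 7.14% for NF-kappa B, 7.69% for hypoxia and glycolysis and 2.94% for oxidative phosphorylation. Lysosome and autophagy had 14.8%, against 6.67% of all genes and 10.2% of the abundant protein-coding genes above. OAS3 (0.61), an antiviral enzyme, was among those kept of 31 interferon-stimulated genes, and NFKB1 (0.32) of 14 NF-kappa B genes. Of the 31, 8 fell in ES8 and 2 in Rh30, where 15.9% and 11.8% of all genes fell. VEGFA (0.34) and PDK1 (0.46) were kept of 26 genes of hypoxia and glycolysis, and ATP5MC1 (0.43) of 34 nuclear genes of oxidative phosphorylation. Of 27 genes of lysosome and autophagy, GABARAPL1 (-0.51) and ATP6V0D1 (-0.50) rose in ES8, and CTSL (0.38) and SQSTM1 (0.31) fell there. NFKB1, VEGFA, PDK1, CTSL and SQSTM1 lost their calls in 8 to 11 of 12 leave-outs.

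**Figure D5:**
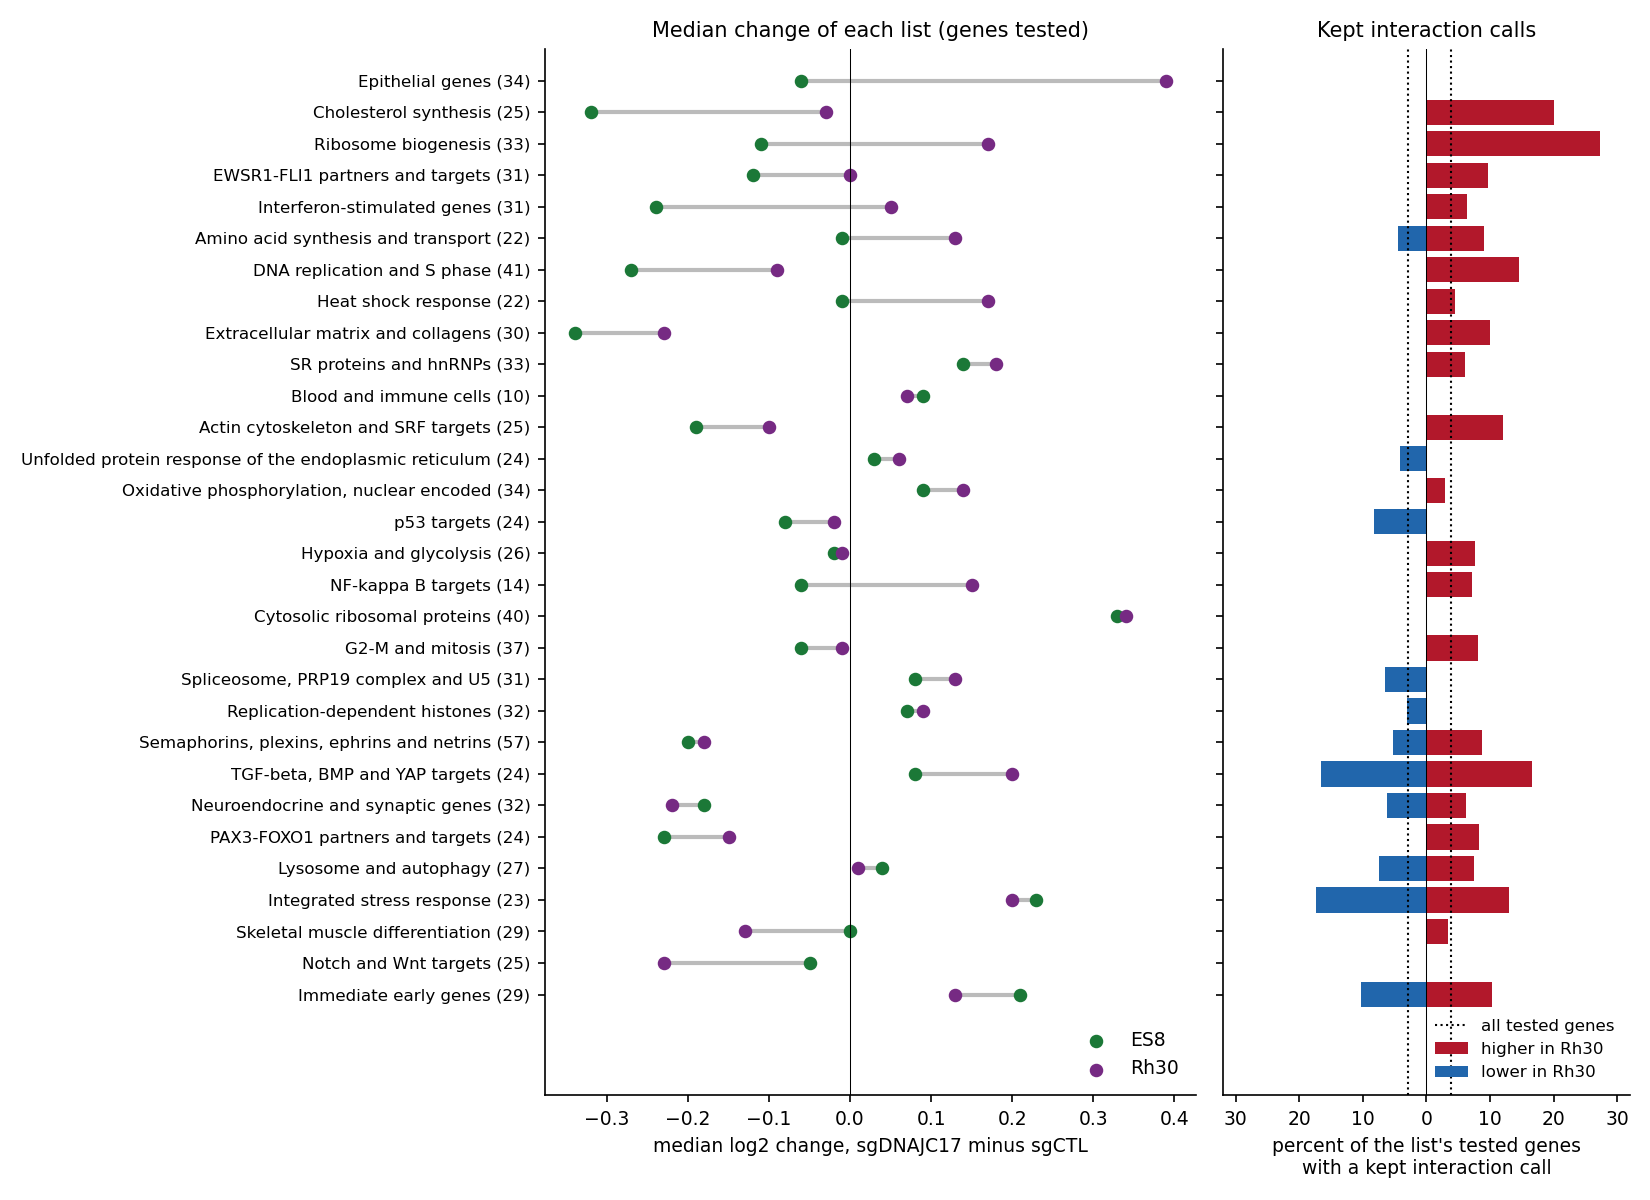
Median log2 change of each gene list in ES8 (green) and Rh30 (purple) at left, and at right the percent of its tested genes with a kept interaction call, with a response higher (red) or lower (blue) in Rh30. Lists with at least 10 genes tested are drawn with that number in brackets, dotted lines mark 3.80% and 2.87% of all genes tested, and ribosome biogenesis reaches 27.3%.

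Mitochondrial mRNAs, noted after the values were seen and on no list, stood apart in the ES8 knockdown libraries. Their share of all counts was 1.12%, 1.12% and 1.09% in ES8 sgCTL, 1.47%, 1.72% and 1.58% with sgDNAJC17 and 1.05% to 1.17% in ΔRRM cells. In Rh30 it was 0.550%, 0.609% and 0.603% with sgCTL, 0.670%, 0.561% and 0.606% with sgDNAJC17 and 0.424% to 0.471% in ΔRRM cells. The ES8 knockdown libraries were all above every other ES8 library, and the Rh30 groups overlapped. Of the 13 genes, which encode subunits of the respiratory chain and ATP synthase, 8 were kept, all lower in Rh30 (against 2.87% of all genes and 4.14% of protein-coding genes with a mean count of at least 1000).

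MT-CYB, cytochrome b, had 0.69 in ES8 and -0.02 in Rh30, a difference of -0.71 ± 0.11 (adjusted p = 0.000761, edgeR). MT-ND4L (-0.74), MT-ND5 (-0.69) and MT-ND4 (-0.62), subunits of complex I, were similar, while MT-CO1 (-0.23) and MT-ATP8 (-0.07) were not called. Without ES8 sgDNAJC17 A 12 of 13 were kept, and 7 to 12 were kept over the 12 leave-outs, with a median difference of -0.47 to -0.64. With the correction for GC content and length 11 were kept. Some of these genes overlap, and nuclear copies of mitochondrial sequence can share reads with them. RNA was selected by poly-A tail, and the part of that step in the counts of each mitochondrial gene was not tested.

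Gene structure differed between the classes. Protein-coding genes that fell in ES8 alone had a median of 16 exon blocks (merged exons), a span of 65.8 kb and 42.7% GC, against 11 blocks, 33.2 kb and 49.5% over all tested. Those that rose in ES8 alone had 9 blocks, 20 kb and 56.3% GC, and 23 of 341 (6.74%) had a single block, against 2.69% of all. The GC contrast moved with ES8 sgDNAJC17 A, since without it the medians were 45.3% and 52.5%, and with the correction 48.7% and 49.8%. The number of exon blocks held better, at 15 and 9 without that library and 14 and 10 with the correction, and the single-block share was 6.73% and 5.32%.

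Genes of a single exon block hold no intron once exons are merged, though merging can hide an intron that some transcripts splice. Of 380 nuclear ones, 35% rose in ES8 and 15.3% in Rh30, against 11.6% and 10.5% of all genes tested, and 19 (5.00%) were kept as lower in Rh30, against 4 (1.05%) as higher (2.87% and 3.80% of all). Without ES8 sgDNAJC17 A the shares that rose were 29.7% and 22.4%, a narrower gap, and over the other leave-outs they ranged from 26.3% to 37.1% and from 8.68% to 15.5%. The median difference of the 380 genes was -0.09. Kept single-block genes beside NOG, TSPYL1 and JUND, chosen after their values were seen, included CENPB (-0.53), of centromeres, MOCS3 (-0.50), RNF26 (-0.45) and FZD1 (-0.44), a Wnt receptor. Of 4587 genes of more than 15 blocks, 35.6% fell in ES8 and 25.6% in Rh30, against 15.9% and 11.8% of all genes tested. Without ES8 sgDNAJC17 A these shares were 39.5% and 32.8%. Of the 4587 genes, 315 (6.87%) were kept as higher in Rh30 and 2.55% as lower, against 3.80% and 2.87% of all. Protein-coding genes with a mean count of at least 1000 had 6.05% and 4.14%. The 6.87% here and the 5.00% of single-block genes kept as lower lay close to these.

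Non-coding genes were few. MIR4435-2HG (0.66) and DLEU1 (0.87) fell in ES8, KIF9-AS1 (-1.13) and the butyrophilin pseudogene BTN2A3P (-1.17) rose there, and MEG3, an imprinted lncRNA, fell in Rh30. MEG3 stood at 49.7, 42.3 and 45.7 CPM in Rh30 sgCTL, 22.2, 17.6 and 19.9 with sgDNAJC17 and 46.4 to 67.8 in ΔRRM cells, with 2.78 to 4.18 in ES8. The Rh30 knockdown libraries were all below the controls, and the difference was -0.90 ± 0.17 (adjusted p = 0.00257, edgeR). KIF9-AS1 overlaps KIF9 on the other strand, and BTN2A3P is close in sequence to its coding relatives, so both counts are uncertain.

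The largest fitted differences belonged to genes near 0 counts in a line, for which counts are given and no fold. NPY1R, a neuropeptide Y receptor, had 3492 to 4278 counts in ES8 sgCTL and 2010 to 3052 with sgDNAJC17, and in Rh30 2, 2 and 0 against 30, 26 and 7. BMP7 had 0, 1 and 1 against 18, 4 and 18 in Rh30, with 1406 to 1499 in ES8 sgCTL. COL2A1, a cartilage collagen, had 4, 6 and 3 against 0, 0 and 0 in Rh30, and 466 to 500 against 293 to 368 in ES8. In ES8, PALMD had 5, 2 and 2 against 0, 0 and 0, and CST7 0, 0 and 0 against 2, 1 and 4. PALMD and CST7 lost their calls in 11 and 9 of 12 leave-outs and COL2A1 in 4, and 149 kept genes had a mean count under 30 in a line.

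The genes set aside held the strongest calls of all. KRT8 and KRT18, the paired keratins of simple epithelia, had differences of 3.47 and 3.66, and their exons overlap each other. Their changes in Rh30 ΔRRM cells, 3.48 and 3.61, were as large as with sgDNAJC17 in parental Rh30 cells, 3.49 and 3.66, against the same sgCTL libraries. The others among the 10 with the smallest p were all lower in Rh30, from ADGRA1 (-1.88), COL7A1 (-1.38), CLDN15 (-1.34) and MN1 (-1.23) to CEP170B (-1.18), MEF2D (-0.94), CCND2 (-0.81) and RIMKLB (-0.76). ADGRA1 fell by 1.62 in Rh30 cells with sgDNAJC17 and by 1.02 in ΔRRM cells.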

How the data were processed

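The authors deposited a table of read counts per gene for each of the 18 libraries, as whole numbers without normalization, and per the labels reads were trimmed with Trimmomatic 0.36, aligned with STAR 2.5.2b to GRCh38 and counted with featureCounts of Subread 1.5.2. The methods of the study name an older build, and the files' own coordinates are GRCh38. Whether counting used strand is not given in the sources used here. Symbols and classes were matched by Ensembl identifier for 55082 of 57500 genes.

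The 12 parental libraries, in 4 groups, were fitted by edgeR 4.0.16 (R 4.3.3, limma 3.58.1) after TMM scaling and filterByExpr, with the robust quasi-likelihood test and Benjamini-Hochberg adjustment over all 18899 genes. Each line's own effect came from the same fit, and ΔRRM was set against sgCTL per line. A gene stayed changed where the Rh30 knockdown and Rh30 ΔRRM effects, which share the sgCTL libraries, had an adjusted p under 0.05, 1 sign, and an ΔRRM change of at least 0.5 times the knockdown change. CPM used TMM library sizes over all 18 libraries. Total counts per library set the precision, and genes with a mean count under 30 in a line are marked. On simulated data, 179 of 200 genes changed 2-fold in Rh30 sgDNAJC17 were recovered among 18613 tested, with 7 false calls and a median estimate of 1.01. The simulated libraries held no shared shift such as the GC trend, and the changed genes had a mean count of at least 100. The median size of kept differences, 0.54, was below the 2-fold change. The simulation checked the fit, and its rates of recovery and false calls do not carry over to these data. Python 3.11.15, numpy 2.4.6, pandas 2.3.3 and matplotlib 3.10.9 were used for the rest.

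The members, the 32 gene lists and the tests were chosen with earlier results of these data known, and lists were described by counts and medians without a test. Genes were named by rule: DNAJC17; among kept protein-coding genes (mean count 100 or more), the 8 of smallest p and the 6 of largest difference in each direction and the 3 of largest difference in each response class of at least 10 such genes; up to 5 kept genes per list by p, or the 2 most abundant where none was kept; the 3 non-coding genes of smallest p in each direction; and the 10 genes of smallest p set aside. Of 142 genes so selected, 113 are printed; 19 of the others have a mean count under 30 in a line. Names outside the rule are marked, and some genes are not reported here.

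Alternatives were DESeq2 1.42.0, its size factors in edgeR, library size alone, a block for the replicate letter, 1 fit of all 18 libraries, dropping the filter, a stricter filter of 10 counts in each library, a lowess offset (span 0.3) for GC content and length with and without the block, an adjusted p under 0.01, a log2 difference of at least 1, other rules for setting aside, and each library left out. Apart from fits without a Rh30 sgCTL library, each alternative took the Rh30 ΔRRM effects from the same fit, with TMM scaling and no offset. A mean count of at least 30 in each line, setting aside genes not tested in Rh30 ΔRRM cells, and the response classes under the offset and without ES8 sgDNAJC17 A were added after the data had been seen. An exact permutation of guide labels within lines was computed and is not reported, since for a gene changed in 1 line the relabeling of the other line leaves the difference in place.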

Additional observations from a re-analysis of the deposited data

Results flagged for a closer look

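The response to sgDNAJC17 differed between the lines for 1798 genes by edgeR's test of the difference itself, of which 1261 were kept. Of the genes named above, those that passed that test are given here with the log2 difference of Rh30 less ES8 in brackets, by the calls in each line. Genes that fell in ES8 with no call in Rh30 were ITGA4 (0.87), MAT2A (0.66), BMAL2 (0.81), CTPS1 (0.61), XPOT (0.42), ALDH18A1 (0.33), OAS3 (0.61), STARD4 (0.69), FDPS (0.38), SQLE (0.32), TOP2A (0.48), ANLN (0.39), BUB1B (0.31), RFC4 (0.47), POLA1 (0.38), RRM2 (0.34), RRM1 (0.34), UTP20 (0.78), WDR12 (0.47), WDR75 (0.51), DDX21 (0.48), GNL3 (0.48), SRPK1 (0.50), MET (0.57), SKP2 (0.37), VRK1 (0.56), TIMP3 (0.51), COL1A2 (0.97), SEMA3A (0.66), SEMA3D (1.11), CNTN1 (0.76), NLGN1 (0.52), TPM4 (0.43), VCL (0.37), ATP5MC1 (0.43), VEGFA (0.34), PDK1 (0.46), NFKB1 (0.32), CTSL (0.38), SQSTM1 (0.31), MIR4435-2HG (0.66), DLEU1 (0.87), POLE2 (0.58), RRP9 (0.40), UTP4 (0.32), NOP56 (0.28), RBM12 (0.31) and TM7SF2 (1.06). Genes that rose in ES8 with no call in Rh30 were NOG (-1.34), TSPYL1 (-0.80), SQOR (-1.97), KLHL24 (-0.67), HERPUD1 (-0.56), TP53INP1 (-0.57), BBC3 (-0.61), JUND (-0.53), NR4A1 (-0.71), GABARAPL1 (-0.51), ATP6V0D1 (-0.50), DDX23 (-0.58), PRPF6 (-0.46), SMAD6 (-0.86), BAMBI (-0.59), SYT11 (-0.49), H2BC21 (-0.69), KIF9-AS1 (-1.13), BTN2A3P (-1.17), TSPYL2 (-0.83), TSPYL4 (-0.84), MT-CYB (-0.71), MT-ND4L (-0.74), MT-ND5 (-0.69), MT-ND4 (-0.62), CENPB (-0.53), MOCS3 (-0.50), RNF26 (-0.45) and FZD1 (-0.44). Called down in Rh30 and not called in ES8 were SEMA6B (-1.63), FXYD6 (-1.94), SOX8 (-1.15), KIAA1671 (-1.23), DDIT4 (-0.63), PCK2 (-0.40), DUSP4 (-0.91), SEMA6A (-1.29) and MEG3 (-0.90). Called up in Rh30 and not called in ES8 were FOSL1 (0.91), ARHGDIB (0.81), SLC7A11 (0.84), CCN1 (0.40), EBP (0.62), CCND1 (0.36), TNNI1 (0.46) and LYAR (0.46). Down in ES8 and up in Rh30 were ALCAM (0.98), F3 (1.27), CAV1 (0.47), EFNB2 (0.48) and TPM1 (0.50). Up in ES8 and down in Rh30 were POLM (-1.17), CPNE1 (-0.85), HOXC11 (-1.23) and SYTL2 (-1.18). Called for the difference and in neither line were HSP90AB1 (0.33), CDC6 (0.34) and RAB24 (-0.54). Genes set aside were HSPA8 (0.74), HSPE1 (0.69), HSPD1 (0.49), KRT8 (3.47), KRT18 (3.66), ADGRA1 (-1.88), MN1 (-1.23), COL7A1 (-1.38), CLDN15 (-1.34), CCND2 (-0.81), CEP170B (-1.18), RIMKLB (-0.76) and MEF2D (-0.94). Genes near 0 counts in a line were NPY1R (4.31), BMP7 (4.21), COL2A1 (-4.84), PALMD (4.38) and CST7 (-4.20), whose fitted values depend on the prior count and are no bound. Down in both and more in ES8 was DNAJC17 (0.68). Up in both and more in ES8 were MOK (-0.76), POFUT2 (-0.68), ZNF212 (-0.66) and TXNIP (-0.43). Up in both and more in Rh30 were PPP1R15A (0.38) and RBM39 (0.48).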

How the results depend on the processing

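With each library left out in turn, called differences ranged from 936 to 2485 (306 to 1406 higher and 445 to 1147 lower in Rh30), kept ones from 676 to 1526 (266 to 919 higher, 300 to 609 lower), and genes kept as changed in ES8 alone from 474 to 1011, in Rh30 alone from 110 to 257 and in opposite directions from 31 to 101. Genes called for the effect of sgDNAJC17 in Rh30 ranged from 2430 to 5878, and the difference of DNAJC17 from 0.60 to 0.79. With all 18 libraries in 1 fit, 599 were called higher, 448 were kept higher and 817 kept lower. With the correction for GC content and length, 3230 were called (1512 higher, 1718 lower) and 2387 kept (1101 and 1286), 1565 in ES8 alone, 334 in Rh30 alone and 157 opposite. Genes kept with that correction, here and above, were still set aside by Rh30 ΔRRM effects fitted without it. With that correction and the replicate block, the figures were 4120 (1981 and 2139), 2793 (1304 and 1489), 1742, 389 and 215. At an adjusted p under 0.01, 567 were called (286 and 281) and 384 kept (206 and 178), 270 in ES8 alone and 55 in Rh30 alone. With a log2 difference of at least 1, 241 were called (105 and 136) and 199 kept (84 and 115), 98 in ES8 alone, 57 in Rh30 alone and 27 opposite. With no gene set aside, 833 were kept lower, 593 in Rh30 alone and 161 opposite. A wider rule set aside every gene called in Rh30 ΔRRM cells with the sign of its Rh30 knockdown change. It asked for no size and for no call in Rh30 knockdown cells, and 719 were kept (404 and 315), 432 in ES8 alone. Of the 522 and 378 genes that fell and rose in ES8 alone, it set aside 275 and 193. With the first rule and a fold of 2 required in Rh30 ΔRRM cells, 538 were kept in Rh30 alone and 151 opposite. The cause of these shifts was not tested, apart from the stricter thresholds and the wider or narrower setting aside, which change the counts by construction.

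With the replicate block alone, 2262 were called and 1446 kept, of which 1152 were among the 1261. Deviations of same-lettered libraries of a line from their group means, over all genes tested, had correlations of -0.0169, -0.0654 and 0.049 in ES8. In Rh30 these were 0.103, 0.0188 and 0.0314. Such correlations do not exclude pairing, and the block raised the calls from 1798 to 2262. DESeq2 called 2480 and kept 1692, 1168 of them shared. Of the 1261 kept genes 0 changed sign under any setting. Over 2765 comparisons of 132 named genes, 2374 kept their call and direction, 390 lost the call and 1 gained it. Depth limits the 149 kept genes with a mean count under 30 in a line.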
